A study of Mus musculus with 16 samples.

Results

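Ribosome biogenesis factors and the transcription factor Myc were followed in mouse quadriceps RNA as a set of 41 named genes. They were chosen by symbol, with earlier results of these data known. All 41 were present among the 13320 genes of the count table, and each was measured in every library of the 4 groups. The set held Myc, 3 genes of RNA polymerase I transcription and 4 proteins of the box C/D small nucleolar ribonucleoproteins (snoRNPs). It also held 5 genes grouped with the box H/ACA snoRNPs, of which Nolc1 is a chaperone that binds snoRNPs of both kinds. The rest were 11 factors of the small ribosomal subunit, 13 of the large subunit and 4 abundant nucleolar proteins.

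The 16 libraries came from quadriceps of male CD2F1 mice, 8 weeks old at the time of the intervention, with 4 libraries in each group. In the splenic C26 group, cells of the mouse colon carcinoma line C26 had been put into the spleen, a route used to seed tumours in the liver, and in the sham group operated mice had been given saline. The subcutaneous C26 group carried the same tumour line under the skin, and the control group had no tumour. Sample titles share a prefix in the splenic C26 and sham groups and another in the subcutaneous C26 and control groups, and the labels state that RNA isolation and sequencing were done together. All tumours came from a single cell line, and the labels state neither what the control mice received nor that the libraries of a group came from separate mice, so p-values measure the spread between libraries, which may be technical. The questions asked here were how the 41 genes differed between splenic C26 and sham muscle, between subcutaneous C26 and control muscle, and between the tumour routes.

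Ribosomes are assembled in the nucleolus, where RNA polymerase I transcribes the ribosomal RNA precursor. SnoRNPs modify that precursor, box C/D particles by ribose methylation and box H/ACA particles by pseudouridylation, and separate sets of factors then fold, cut and export the small and the large subunit. Myc, which pairs with Max and binds the E-box letters CACGTG, is known in many cell types as an activator of these genes. In adult skeletal muscle Myc is normally low and is known to rise with overload, injury and regeneration.

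The values below are CPM, the usual unit that sets each gene's count against its library's total, here with totals scaled by the trimmed mean of M values (TMM), and a log2 fold change (log2 FC) is tumour-bearing over tumour-free with its standard error (SE). Libraries held 25882067 to 34910657 counts, and the lowest count of any member in any library was 107, for Myc. The 8 muscle fibre markers were all measured, with summed levels of 149694 to 184707 CPM in splenic C26, 111861 to 162876 in sham, 110377 to 251548 in subcutaneous C26 and 117576 to 206231 in control libraries. Splenic C26 replicate 1 and subcutaneous C26 replicate 3 stood apart from the rest of their groups: on the first principal component of all genes they lay at -6.31 and 6, between the other 6 tumour libraries (64.6 to 93.3) and the 8 tumour-free ones (-60.8 to -55.4).

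Nearly the whole set was higher in tumour-bearing muscle. As the set was chosen with earlier results known, its shares beside those of all genes are a description and no test. In splenic C26 against sham, 37 of the 41 genes rose, 1 fell and 3 did not pass an adjusted p of 0.05 (edgeR quasi-likelihood test, Benjamini-Hochberg adjustment over 13320 genes), where 28.1% of all genes tested were called higher and 23.9% lower (52% in either direction). In subcutaneous C26 against control, 39 rose and 2 did not pass, where 27% of all genes were called higher and 23.1% lower (50% in either direction). None of the 41 was called lower there by edgeR, DESeq2 or limma, and the 2 that did not pass had unadjusted p above 0.05. The median log2 FC of the 41 genes was 0.97 in splenic C26 and 1.03 in subcutaneous C26, against medians of -0.03 and -0.02 over all genes in the same comparisons. In 34 members every splenic C26 library lay above every sham library (21.1% of all genes did), and in 36 every subcutaneous C26 library lay above every control library (25.2% of all genes). Nhp2, Ltv1 and Bop1 in splenic C26 and Utp15, Ppan and Bms1 in subcutaneous C26 were called higher although their groups overlapped. At least 2-fold higher levels were fitted for 20 members in splenic C26 and for 21 in subcutaneous C26. The 37 genes that rose in splenic C26 also rose in subcutaneous C26, and 22.1% of all genes were called higher in both.

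**Figure D1:**
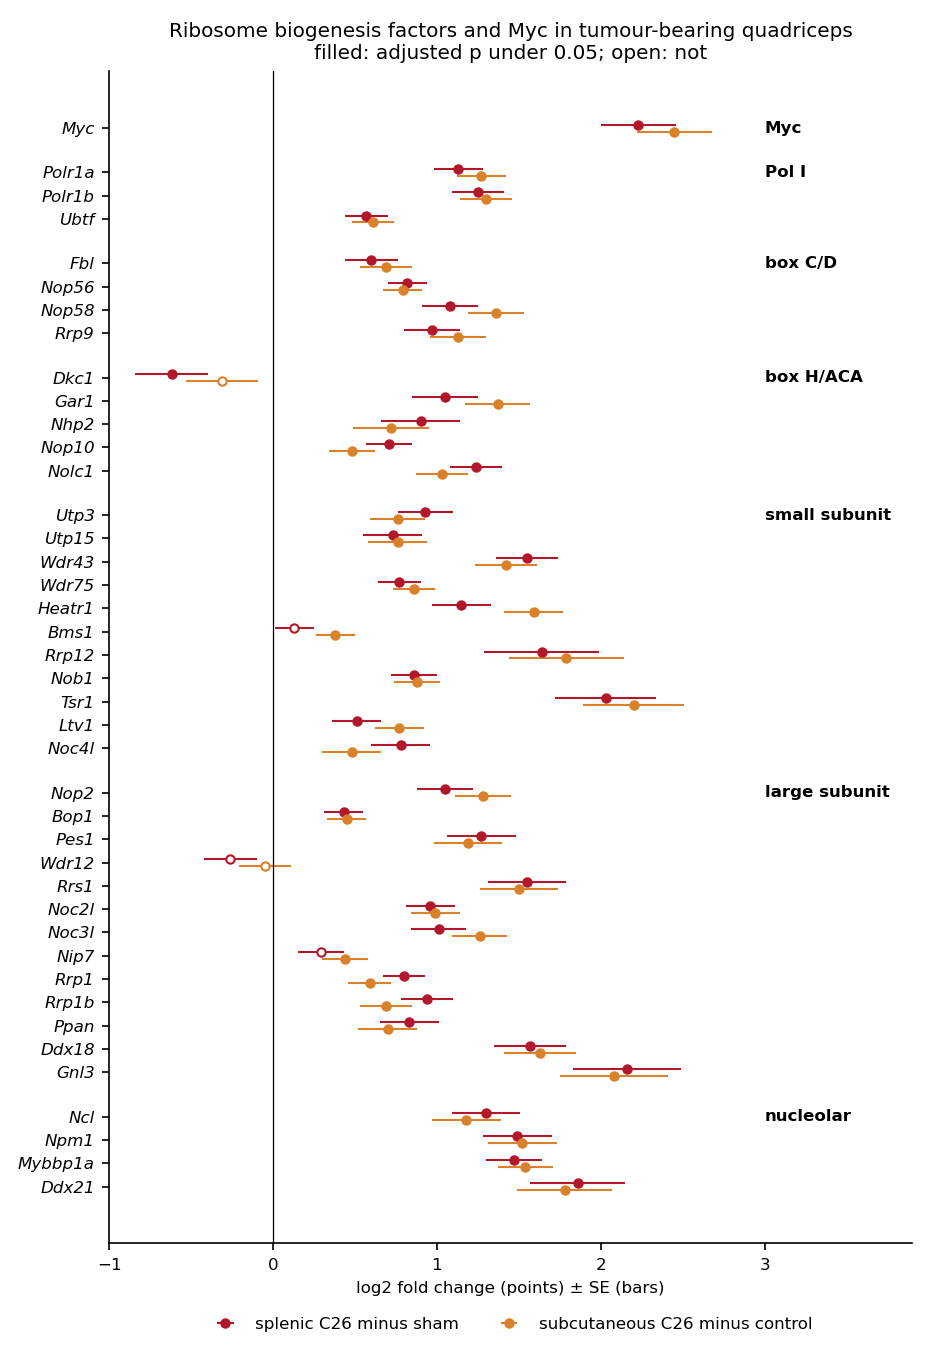
Log2 fold change (points) with SE (bars) of the 41 genes, splenic C26 minus sham in red and subcutaneous C26 minus control in orange, grouped by role; filled points passed an adjusted p of 0.05. Myc lies farthest right at 2.23 and 2.45, and Dkc1 and Wdr12 are the only members with both points left of 0.

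Myc, the transcription factor, had the highest log2 FC of the 41 genes in both tumour settings. Its level was 27.5, 19.8, 21.3 and 34.9 CPM in the splenic C26 libraries, against 7.11, 5.25, 5.54 and 4.12 CPM in the sham libraries. The subcutaneous C26 libraries held 27.5, 36.1, 20.6 and 27.2 CPM, against 5.28, 5.68, 5.78 and 3.63 CPM in the control libraries. Every tumour library lay above every tumour-free one, and the lowest tumour level (19.8 CPM) stood above the highest tumour-free level (7.11 CPM). The log2 FC of Myc (chr15:61985391-61990374, plus strand, mm10) was 2.23 ± 0.23 in splenic C26 (4.71-fold, adjusted p = 2.13e-05 by edgeR) and 2.45 ± 0.23 in subcutaneous C26 (5.47-fold, adjusted p = 1.14e-05). Its call held under all 27 alternative settings in both comparisons.

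**Figure D2:**
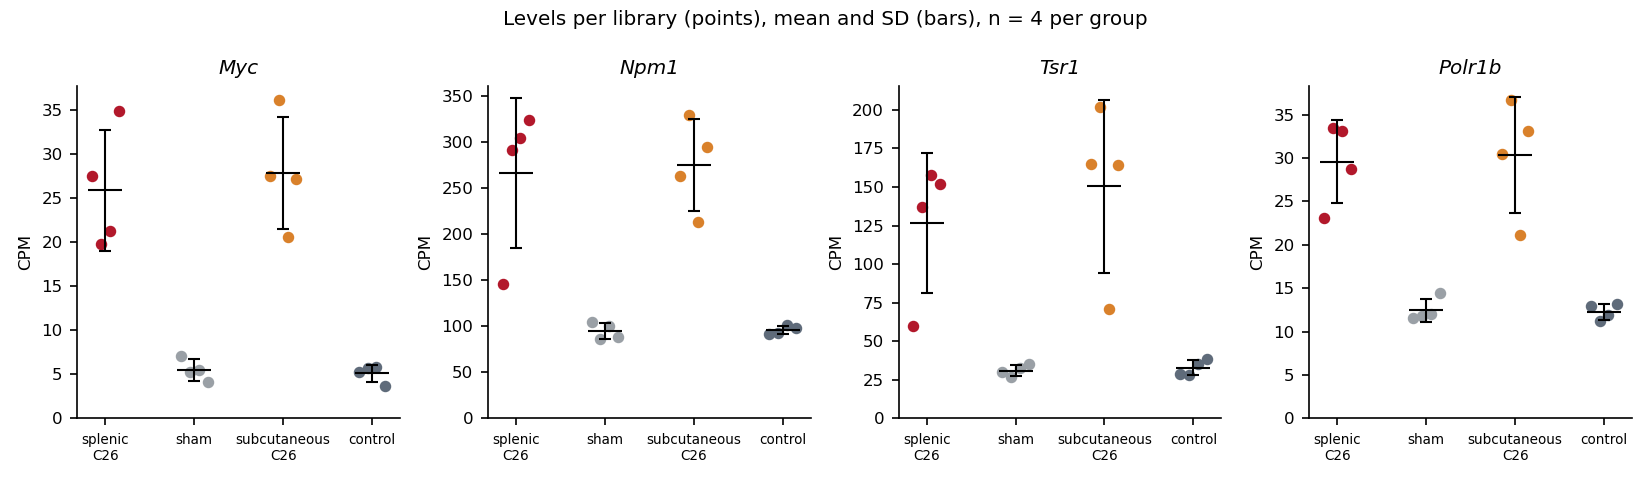
CPM of Myc, Npm1, Tsr1 and Polr1b in each library (points) with the mean and SD (bars, n = 4 per group), in splenic C26, sham, subcutaneous C26 and control, from left to right. In all 4 genes each tumour library lies above each tumour-free library, and for Tsr1 splenic C26 replicate 1 (60.1 CPM) and subcutaneous C26 replicate 3 (70.6 CPM) lie lowest among the tumour libraries.

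The promoters of the members were searched for CACGTG, the palindromic E-box of Myc and Max, because these are the letters through which Myc is known to bind DNA. RefSeq (GRCm38.p6) gave promoters for 35 of the 41; Myc, Fbl, Rrp12, Bop1, Rrs1 and Npm1 were not among them. In the 250 bases before the start, 1 of 35 members (2.86%) held the motif, against 8.46% of the 10122 genes of the count table with a promoter and 6.02% of all 32851 promoters. With the 50 bases after the start included, 6 of 35 (17.1%) held it, against 10.2% and 7.15%. The stretches that hold it are printed 5′ to 3′ on the strand of the gene, with the E-box in capitals, to show where it lies relative to the start.
Nop2, chr6:125131811-125131840, plus strand, motif starting 60 bases before the start: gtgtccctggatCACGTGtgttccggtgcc
Pes1, chr11:3963965-3963994, plus strand, motif from base 3 after the start: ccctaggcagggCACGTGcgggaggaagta
Wdr43, chr17:71616220-71616249, plus strand, motif from base 18: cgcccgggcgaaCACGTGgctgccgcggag
Tsr1, chr11:74898092-74898121, plus strand, motif from base 25: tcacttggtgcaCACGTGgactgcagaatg
Ltv1, chr10:13193092-13193121, minus strand, motif from base 29: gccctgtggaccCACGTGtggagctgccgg
Mybbp1a, chr11:72441355-72441376, plus strand, motif from base 41: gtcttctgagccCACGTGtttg
In 5 of the 6 the letters lie within the 50 bases after the RefSeq start. That start can differ from the GENCODE gene bounds given elsewhere, as for Wdr43 (GENCODE start chr17:71615895, RefSeq promoter ending at 71616214). All 6 genes rose in both comparisons, 1.43-fold (Ltv1) to 4.09-fold (Tsr1) in splenic C26 and 1.70-fold (Ltv1) to 4.61-fold (Tsr1) in subcutaneous C26. Gnl3 and Ddx21, among the members with the largest rises in splenic C26 (4.48-fold and 3.62-fold), hold no such letters in the 300-base window. Of the 34 members without CACGTG in the 250 bases before the start, 30 rose in splenic C26 and 32 in subcutaneous C26. These 34 include the 5 genes whose letters lie after the start, so they are not a group without the motif in the 300 bases. The related letters CACGCG (searched with the reverse complement CGCGTG) lay in the 250 bases before the start of 5 of 35 members (14.3%), against 14.3% of genes of the count table and 7.62% of all promoters. In the 300 bases they lay in 12 of 35 (34.3%), against 17.4% and 9.27%. CATGTG (with CACATG) lay in the 250 bases in 2 of 35 members (5.71%), against 7.28% and 12.3%, and in the 300 bases in 5 of 35 (14.3%), against 8.36% and 14.2%. The 300-base window and these 2 motifs were chosen after seeing the data. A match describes these letters and not binding, and no match says nothing about Myc.

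The 3 genes of RNA polymerase I transcription all rose in both settings, where 28.1% and 27% of all genes were called higher. Polr1b, a core catalytic subunit of the polymerase (chr2:129100995-129126594, plus strand), stood at 23.1, 33.4, 33.1 and 28.7 CPM in splenic C26 libraries, against 11.6, 11.8, 12 and 14.4 CPM in sham libraries. It stood at 30.4, 36.7, 21.1 and 33.1 CPM in subcutaneous C26 libraries, against 12.9, 11.2, 11.9 and 13.2 CPM in control libraries. No tumour library overlapped its tumour-free group, and the log2 FC was 1.25 ± 0.16 (adjusted p = 8.22e-05, edgeR) in splenic C26 and 1.30 ± 0.16 (adjusted p = 6.8e-05) in subcutaneous C26. Polr1a, which encodes the largest subunit (chr6:71909053-71984935, plus strand), measured 90.1, 146, 102 and 106 CPM in splenic C26 and 51, 45.1, 51.6 and 55.3 CPM in sham libraries. In subcutaneous C26 it measured 114, 143, 97.9 and 131 CPM, against 47.3, 45.3, 55.3 and 53 CPM in control. Again the groups did not overlap, with log2 FC of 1.13 ± 0.15 (adjusted p = 0.000111, edgeR) and 1.27 ± 0.15 (adjusted p = 5.86e-05). Ubtf, the architectural factor that binds the ribosomal gene promoter, rose less in log2 terms, by 0.57 ± 0.13 in splenic C26 and 0.61 ± 0.13 in subcutaneous C26.

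The ribosomal RNA precursor itself gave no call with all 16 libraries. Rn45s, the feature that carries it, averaged 7947 ± 2152 CPM in splenic C26 and 8044 ± 346 CPM in sham libraries, and 14506 ± 7246 CPM in subcutaneous C26 and 9283 ± 3361 CPM in control libraries (mean ± SD, n = 4 each). Its log2 FC was -0.02 ± 0.32 (adjusted p = 0.968, edgeR) in splenic C26 and 0.64 ± 0.33 (adjusted p = 0.11) in subcutaneous C26. The subcutaneous C26 value passed as higher without control replicate 4 (0.91, adjusted p = 0.0392) or subcutaneous C26 replicate 1 (0.84, adjusted p = 0.0354), and it ran from 0.24 to 0.91 over 26 alternatives. The labels describe the libraries as mRNA sequencing, so the reads on Rn45s (0.539% to 2.28% of counts) do not measure how much precursor the muscle made. Of 13 further genes of polymerase I transcription, 9 rose (69.2%) and 4 did not pass in splenic C26, where 28.1% of all genes were called higher. In subcutaneous C26, 10 rose (76.9%) and 3 did not pass, where 27% of all genes were called higher. Taf1d and Taf1a, subunits of the promoter selectivity factor, changed by 3.06 ± 0.54 and 0.83 ± 0.20 in splenic C26 and by 2.51 ± 0.53 and 1.61 ± 0.20 in subcutaneous C26. Cd3eap (now Polr1g), a polymerase I subunit, rose by 1.25 ± 0.24 in splenic C26 and 1.57 ± 0.24 in subcutaneous C26.

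All 4 box C/D proteins rose in both settings, where 28.1% and 27% of all genes were called higher. Nop56, a core scaffold protein of these particles (chr2:130274430-130279313, plus strand), held 39.5, 47.5, 46.3 and 51.9 CPM in splenic C26 libraries and 27.2, 26.6, 25.2 and 26 CPM in sham libraries. Its levels were 47.7, 49.6, 37.1 and 53.4 CPM in subcutaneous C26 and 24.7, 26.6, 28.7 and 28.6 CPM in control libraries. The groups were apart in both comparisons, with log2 FC of 0.82 ± 0.12 (adjusted p = 0.000159, edgeR) and 0.79 ± 0.12 (adjusted p = 0.000193). Nop58, its partner in the particle (chr1:59684971-59719044, plus strand), was found at 26.3, 35.1, 41.4 and 46.2 CPM in splenic C26 libraries, against 17, 18.1, 18.7 and 16.4 CPM in sham libraries. In subcutaneous C26 libraries it was found at 40.1, 44.7, 26.7 and 44.4 CPM, against 14.4, 16, 14.9 and 15.5 CPM in control libraries. Without overlap, it rose by 1.08 ± 0.17 (adjusted p = 0.000274, edgeR) and 1.36 ± 0.17 (adjusted p = 7.91e-05). Fbl, the ribose methyltransferase, rose by 0.60 ± 0.16 in splenic C26 and 0.69 ± 0.16 in subcutaneous C26, and Rrp9, a protein of the particle that guides early precursor cleavage, by 0.97 ± 0.17 and 1.13 ± 0.17. Nhp2l1 (now Snu13), the remaining core protein of the box C/D particle and not one of the 41, rose by 0.36 ± 0.12 in splenic C26 (adjusted p = 0.022, edgeR), and its log2 FC was 0.12 ± 0.12 in subcutaneous C26 (adjusted p = 0.418).

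The box H/ACA proteins split. Dkc1, the pseudouridine synthase dyskerin (chrX:75095854-75109777, plus strand), held 25.8, 22.2, 14.7 and 11.8 CPM in splenic C26 libraries and 30.4, 28, 28.5 and 28.1 CPM in sham libraries. In subcutaneous C26 it held 20.7, 16.6, 31.8 and 20 CPM, against 27.2, 26, 29.5 and 27.9 CPM in control libraries. All 4 splenic C26 libraries lay below all sham libraries, whereas subcutaneous C26 replicate 3, at 31.8 CPM, lay above every control library and the other 3 below. The log2 FC was -0.62 ± 0.22 in splenic C26 (0.649-fold, adjusted p = 0.0264, edgeR) and -0.31 ± 0.22 in subcutaneous C26 (adjusted p = 0.24). Dkc1 was the only member called lower in either comparison. In splenic C26 that call was lost without sham replicate 1 (adjusted p = 0.0558), splenic C26 replicate 3 (0.0784) or splenic C26 replicate 4 (0.0707), and in a fit of the 8 libraries alone (0.0524). Without subcutaneous C26 replicate 3, Dkc1 also fell in subcutaneous C26 (-0.53, adjusted p = 0.0357). An exon of Dkc1 overlaps Mpp1 on the opposite strand. Whether the counting used strand is unknown here, so reads from such overlaps may belong to either gene.

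The partners of dyskerin in the same particle rose. Gar1 (chr3:129824912-129831396, minus strand) was at 7.69, 13.9, 11.5 and 11.3 CPM in splenic C26 libraries, against 4.54, 5.42, 5.87 and 5.62 CPM in sham libraries. It was at 12.8, 15, 7.87 and 13.7 CPM in subcutaneous C26 libraries, against 4.82, 4.53, 4.76 and 5.05 CPM in control libraries. The groups did not overlap, and Gar1 rose by 1.05 ± 0.20 (adjusted p = 0.000817, edgeR) in splenic C26 and 1.37 ± 0.20 (adjusted p = 0.000177) in subcutaneous C26. Nhp2 rose by 0.90 ± 0.24 in splenic C26 and 0.72 ± 0.23 in subcutaneous C26, and Nop10 by 0.71 ± 0.14 and 0.48 ± 0.14. In subcutaneous C26 the call of Nhp2 was lost in 4 of 27 alternatives, with upper-quartile scaling (0.47, adjusted p = 0.0658) and without control replicate 1 (0.0513), subcutaneous C26 replicate 1 (0.0544) or subcutaneous C26 replicate 2 (0.0872). That of Nop10 was lost in 2, with upper-quartile scaling (0.24, adjusted p = 0.0893) and without subcutaneous C26 replicate 2 (0.41, adjusted p = 0.0502). Nhp2 in splenic C26 replicate 1 (10.9 CPM) lay within the sham range (10.4 to 13.3 CPM). Nolc1, a chaperone that binds snoRNPs of both kinds (chr19:46075863-46085530, plus strand), gave 63.3, 80.7, 116 and 100.1 CPM in splenic C26 libraries and 37.3, 37.5, 38.9 and 39 CPM in sham libraries. It gave 76.2, 84, 60 and 84 CPM in subcutaneous C26 and 38.5, 34.4, 35.9 and 40 CPM in control libraries. Here too no libraries overlapped, and the log2 FC was 1.24 ± 0.16 (adjusted p = 8.22e-05, edgeR) in splenic C26 and 1.03 ± 0.16 (adjusted p = 0.000242) in subcutaneous C26.

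**Figure D3:**
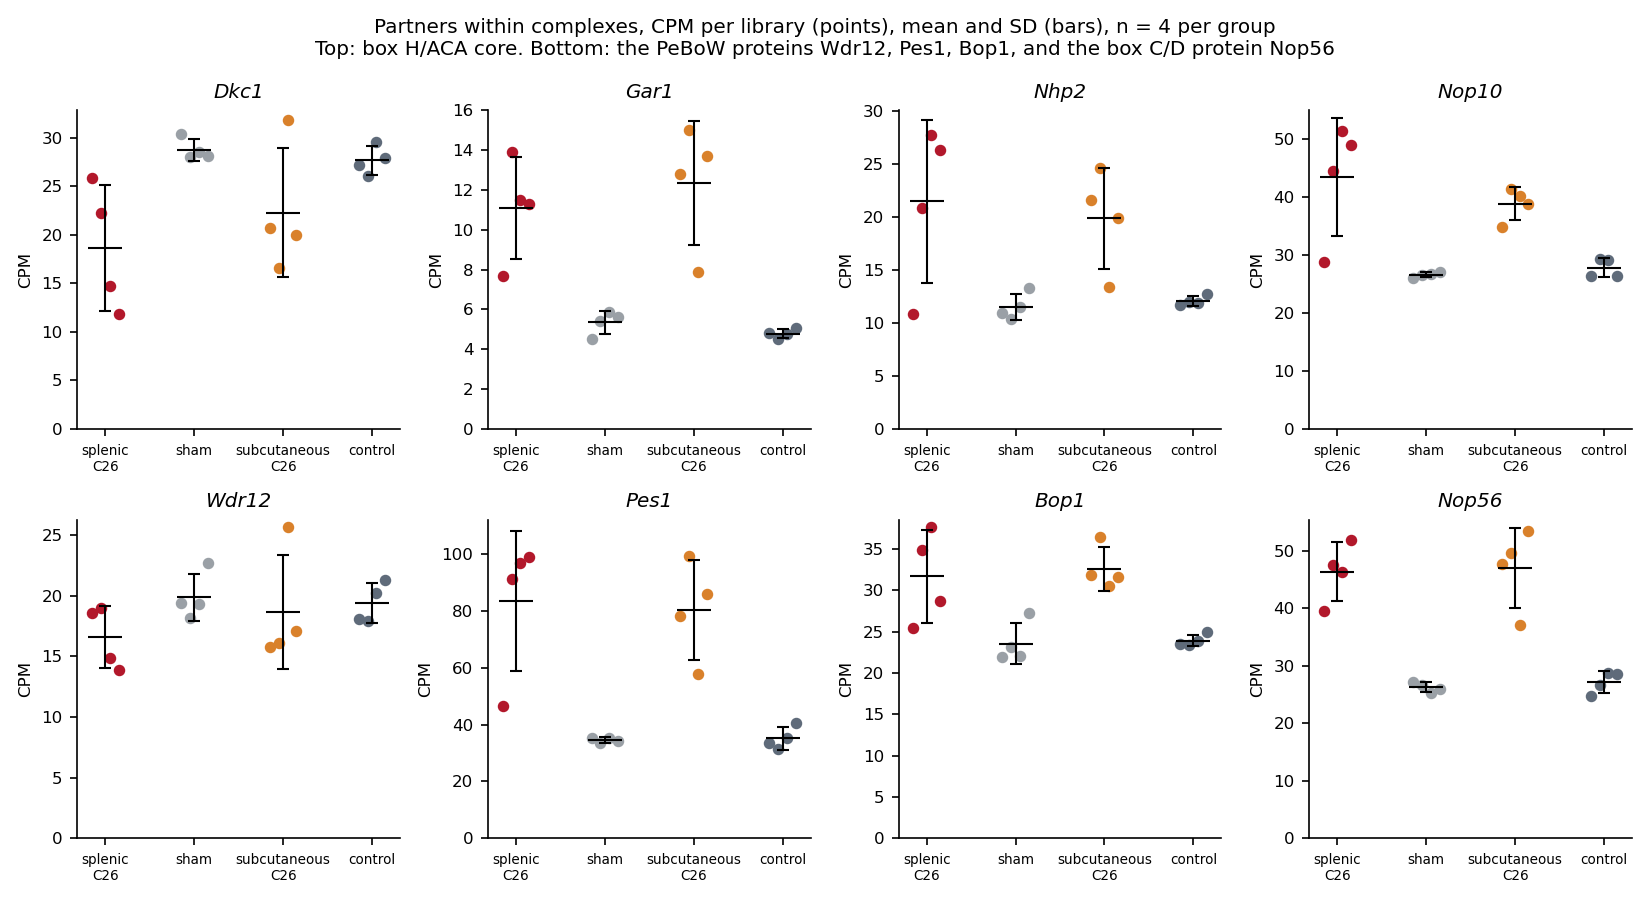
CPM per library (points) with mean and SD (bars, n = 4 per group) of the box H/ACA proteins Dkc1, Gar1, Nhp2 and Nop10 (top) and of Wdr12, Pes1, Bop1 and Nop56 (bottom), in splenic C26, sham, subcutaneous C26 and control, from left to right. Dkc1 lies lower in splenic C26 than in sham while its 3 partners lie higher on average, and Wdr12 shows no call while Pes1 and Bop1 rose.

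Small subunit factors rose in 10 of 11 cases (90.9%) in splenic C26 and in 11 of 11 in subcutaneous C26, with medians of 0.86 in each. Of all genes, 28.1% and 27% were called higher in these comparisons. Wdr43, a protein of the complex that first binds the nascent precursor (chr17:71615895-71659031, plus strand), reached 70.1, 120.0, 133 and 127 CPM in splenic C26 libraries, against 41, 36.9, 37.2 and 38.8 CPM in sham libraries. It reached 110.0, 135, 77.4 and 119 CPM in subcutaneous C26 libraries, against 39.3, 40.7, 43.9 and 41.3 CPM in control libraries. No libraries overlapped, and the log2 FC was 1.55 ± 0.19 (adjusted p = 5.75e-05, edgeR) in splenic C26 and 1.42 ± 0.19 (adjusted p = 9.67e-05) in subcutaneous C26. Tsr1, a factor of late small subunit maturation in the cytoplasm (chr11:74898071-74909342, plus strand), lay at 60.1, 137, 158 and 152 CPM in splenic C26 libraries and at 30, 26.5, 32.3 and 35.1 CPM in sham libraries. In subcutaneous C26 it lay at 165, 202, 70.6 and 164 CPM, against 28.9, 28.3, 35.2 and 38.2 CPM in control. Splenic C26 replicate 1 and subcutaneous C26 replicate 3 held the lowest levels of their groups by a wide margin, and stood above all tumour-free libraries. The log2 FC of Tsr1 was 2.03 ± 0.31 (4.09-fold, adjusted p = 0.000208, edgeR) in splenic C26 and that of subcutaneous C26 corresponded to 4.61-fold (adjusted p = 0.000134).

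Bms1, a GTPase of the small subunit precursor (chr6:118383381-118419474, minus strand), was the exception among the small subunit factors. It measured 48.3, 57.1, 51.7 and 49.5 CPM in splenic C26 libraries and 49.7, 44.1, 46.2 and 48.7 CPM in sham libraries, and these ranges overlapped. It measured 54, 63.9, 58.2 and 62.2 CPM in subcutaneous C26 libraries and 40.4, 39, 48.3 and 56 CPM in control libraries, where control replicate 4 lay within the subcutaneous C26 range. The log2 FC was 0.13 ± 0.12 in splenic C26 (adjusted p = 0.363, edgeR), and Bms1 rose by 0.38 ± 0.12 in subcutaneous C26 (adjusted p = 0.0158), a call that 6 of 27 alternatives lost, among them those that left out replicate 1 or 2 of the control or replicate 2 or 4 of the subcutaneous C26 group (adjusted p of 0.0514 to 0.0686). With upper-quartile scaling the splenic C26 value was -0.08. The other 8 small subunit factors rose in both settings, from 0.51 (Ltv1, a late export factor) to 1.64 (Rrp12) in splenic C26 and from 0.48 (Noc4l) to 1.79 (Rrp12) in subcutaneous C26. Heatr1, which works in the same early complex as Wdr43 and Utp15, rose by 1.15 ± 0.18 and 1.59 ± 0.18, and Nob1, the nuclease of the last cut in small subunit RNA, by 0.86 ± 0.14 and 0.88 ± 0.14. The call of Noc4l in subcutaneous C26 (adjusted p = 0.0376, edgeR) was lost in 11 of 27 alternatives. Among them were upper-quartile scaling (0.24, adjusted p = 0.215) and the fits without each control or subcutaneous C26 replicate in turn (adjusted p of 0.0509 to 0.093).

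Of the 13 large subunit factors, 11 rose (84.6%) in splenic C26 and 12 (92.3%) in subcutaneous C26, against 28.1% and 27% of all genes. Ddx18, an RNA helicase (chr1:121553835-121567989, minus strand), stood at 29.1, 57.7, 51.8 and 63.7 CPM in the splenic C26 libraries and at 16.6, 17.5, 15.9 and 18.2 CPM in the sham libraries. In the subcutaneous C26 libraries it stood at 55.1, 61.9, 31.1 and 57 CPM, against 16.7, 15.8, 16.7 and 17.1 CPM in the control libraries. Each tumour library exceeded its tumour-free group, and the log2 FC was 1.57 ± 0.22 (adjusted p = 0.00014, edgeR) in splenic C26 and 1.63 ± 0.22 (adjusted p = 0.000111) in subcutaneous C26. Noc2l, a nucleolar factor that travels with large subunit precursors (chr4:156236010-156247616, plus strand), had 44.9, 74.9, 67.1 and 65 CPM in splenic C26 and 35.2, 30, 31.9 and 32.8 CPM in sham libraries. It had 59.6, 69.3, 58.4 and 62.8 CPM in subcutaneous C26 and 28.4, 26.6, 34.5 and 36.6 CPM in control libraries. The groups were again apart, at log2 FC of 0.96 ± 0.15 (adjusted p = 0.000233, edgeR) and 0.99 ± 0.15 (adjusted p = 0.000194).

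Pes1, Bop1 and Wdr12, which form the PeBoW complex of large subunit processing, differed among themselves. Pes1 rose by 1.27 ± 0.21 in splenic C26 and 1.19 ± 0.21 in subcutaneous C26, and Bop1 by 0.43 ± 0.12 and 0.45 ± 0.12. With upper-quartile scaling Bop1 was at 0.21 in each comparison and lost both calls (adjusted p = 0.105 and 0.11), and its splenic C26 call was also lost without splenic C26 replicate 3 and subcutaneous C26 replicate 4 (0.34, adjusted p = 0.0503). Wdr12 (chr1:60069785-60098645, minus strand) measured 18.6, 19, 14.9 and 13.9 CPM in splenic C26 libraries, against 19.4, 18.2, 19.3 and 22.7 CPM in sham libraries. It measured 15.8, 16.1, 25.7 and 17.1 CPM in subcutaneous C26 libraries, against 18.1, 17.9, 20.2 and 21.3 CPM in control libraries. The groups overlapped in both comparisons, and in subcutaneous C26 replicate 3 Wdr12 was higher than in any other of the 16 libraries. Its log2 FC was -0.26 ± 0.16 (adjusted p = 0.178, edgeR) in splenic C26 and -0.05 ± 0.16 (adjusted p = 0.797) in subcutaneous C26, and it was the only member that passed in neither. An exon of Wdr12 overlaps Carf on the opposite strand.

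Nip7, a small protein needed for large subunit RNA processing (chr8:107056877-107060931, plus strand), passed in 1 setting. It held 11.9, 12.5, 17.2 and 14.2 CPM in splenic C26 libraries and 10.9, 11.8, 10.7 and 12.3 CPM in sham libraries, which overlapped. It held 15.3, 14.6, 13 and 13.9 CPM in subcutaneous C26 libraries and 12.6, 10.8, 9.41 and 9.01 CPM in control libraries, all subcutaneous C26 libraries being higher. The log2 FC was 0.29 ± 0.14 (adjusted p = 0.0921, edgeR) in splenic C26 and 0.44 ± 0.14 (adjusted p = 0.016) in subcutaneous C26. The splenic C26 value passed without splenic C26 replicate 1 (0.36, adjusted p = 0.0406), and the subcutaneous C26 call was lost in 6 of 27 alternatives, among them those that dropped replicate 1 or 2 of the subcutaneous C26 or replicate 3 or 4 of the control group (adjusted p of 0.05 to 0.0637). The largest rises among large subunit factors were those of Gnl3, the nucleolar GTPase nucleostemin, at 2.16 ± 0.33 in splenic C26 and 2.08 ± 0.33 in subcutaneous C26. Rrs1, which brings the 5S particle into the large subunit, rose by 1.55 ± 0.24 and 1.50 ± 0.24, and Nop2, an RNA methyltransferase, by 1.05 ± 0.17 and 1.28 ± 0.17.

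The 4 abundant nucleolar proteins all rose, with a median log2 FC of 1.48 in splenic C26 and 1.53 in subcutaneous C26. Of all genes, 28.1% and 27% were called higher in these comparisons. Mybbp1a, a nucleolar Myb-binding protein (chr11:72441355-72451768, plus strand), was measured at 179, 276, 293 and 276 CPM in splenic C26 libraries, against 91.2, 86.2, 88.9 and 104 CPM in sham libraries. In subcutaneous C26 libraries the values were 257, 313, 193 and 280.4 CPM, against 88.1, 78.2, 97.5 and 94.9 CPM in control libraries. No libraries overlapped, and the log2 FC was 1.47 ± 0.17 (adjusted p = 4.89e-05, edgeR) in splenic C26 and 1.54 ± 0.17 (adjusted p = 3.65e-05) in subcutaneous C26. Npm1, the nucleolar chaperone nucleophosmin (chr11:33152287-33163206, minus strand), had 146, 292, 304 and 324 CPM in splenic C26 libraries, against 105, 86.4, 100.2 and 88.2 CPM in sham libraries. It had 263, 330.0, 213 and 295 CPM in subcutaneous C26 libraries, against 91.8, 92.7, 101 and 98.4 CPM in control libraries. Splenic C26 replicate 1 was the lowest tumour library and still lay above the highest sham library, and Npm1 rose by 1.49 ± 0.21 (adjusted p = 0.000125, edgeR) and 1.52 ± 0.21 (adjusted p = 0.000111). Ncl, nucleolin, rose by 1.30 ± 0.21 in splenic C26 and 1.18 ± 0.21 in subcutaneous C26, and the helicase Ddx21 by 1.86 ± 0.29 and 1.78 ± 0.29.

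The tumour routes were set against each other by testing the difference of the fold changes, splenic C26 over sham minus subcutaneous C26 over control. Route goes with the title prefix in these groups, as does the operation in sham against control, and these cannot be told apart. None of the 41 genes passed (edgeR), none had an unadjusted p under 0.05, and the smallest adjusted p was 0.857; DESeq2 and limma also called 0 of the 41. Differences ran from -0.44 ± 0.25 for Heatr1 to 0.30 ± 0.25 for Noc4l on the log2 scale. A p above the threshold does not show that the responses were equal: the SE of these differences was 0.17 to 0.49. Over all genes edgeR called 0 differences, with 851 genes at an unadjusted p under 0.05, and DESeq2 called 84 higher and 2 lower. Sham against control likewise gave 0 calls among the 41 (0 at an unadjusted p under 0.05, and 0 by DESeq2 and limma), with log2 FC of -0.10 to 0.21, where 0.00751% of all genes were called lower and 0% higher. Nop58 was the only member whose sham libraries all lay above the control libraries, and none lay below, against 2.46% and 2.39% of all genes.

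The members did not rise evenly over the tumour libraries. For each library, log2 CPM was set against the mean of its tumour-free group, and the median over the 40 members other than Myc was taken. In splenic C26 replicates 1 to 4 this median was 0.55, 1.04, 1.13 and 1.07, and in subcutaneous C26 replicates 1 to 4 it was 0.98, 1.16, 0.61 and 1.10. Splenic C26 replicate 1 held the lowest level of its group for 36 of the 41 genes, and subcutaneous C26 replicate 3 for 35. For Myc the difference was 2.34 in splenic C26 replicate 1, against 1.86, 1.97 and 2.68 in replicates 2 to 4, so that replicate was not the lowest of its group. In subcutaneous C26 replicate 3 it was 2.03, against 2.44, 2.83 and 2.43 in replicates 1, 2 and 4, the lowest of its group as for most members. Above all 4 tumour-free libraries of their comparison lay 34, 39, 39 and 38 of the 41 genes in splenic C26 replicates 1 to 4 (35.3% to 40.5% of all genes) and 38, 39, 39 and 39 in subcutaneous C26 replicates 1 to 4 (38.2% to 39.9% of all genes). Without these 2 libraries, 38 genes rose and 2 (Dkc1 and Wdr12) fell in splenic C26, and 39 rose and 1 (Dkc1) fell in subcutaneous C26.

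**Figure D4:**
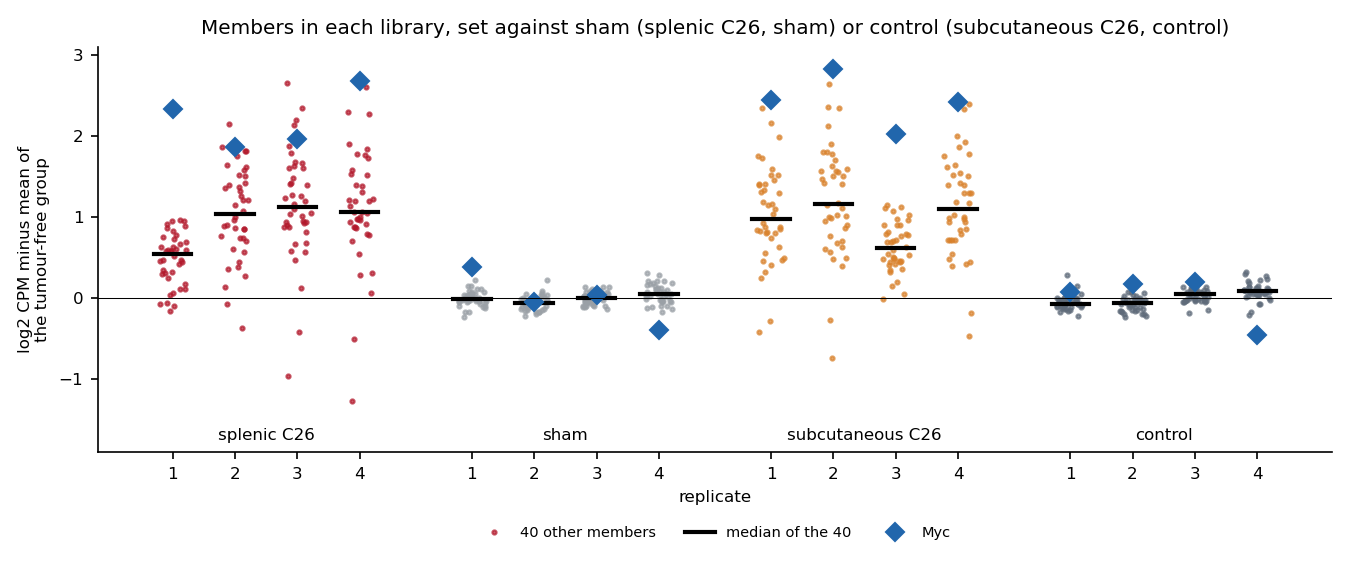
Difference in log2 CPM from the mean of the tumour-free group for each of the 40 other members (dots), their median (black line) and Myc (blue diamond) in each of the 16 libraries; splenic C26 and sham are set against sham, subcutaneous C26 and control against control. In splenic C26 replicate 1 the median is 0.55 while Myc stands at 2.34.

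Transcripts of other cells also differed between the groups. The 8 markers of neutrophils and marrow, all measured, summed to 18.8 to 2482 CPM in splenic C26 and 1.21 to 1.84 in sham libraries. Their sums were 23.1 to 442 CPM in subcutaneous C26 and 1.45 to 49 in control libraries, which overlapped. Camp, Ltf and Mpo were at 0 in all sham libraries. In splenic C26, 7 of the 8 were called higher (median log2 FC 8.80), against 28.1% of all genes. In subcutaneous C26, 1 of the 8 was called higher (median log2 FC 0.38), against 27% of all genes. The 5 measured of 8 proliferation markers summed to 18.8 to 39.9 CPM in splenic C26 and 16.9 to 18 in sham, and to 23 to 97.3 CPM in subcutaneous C26 and 14.2 to 26.5 in control libraries, with the highest sums in splenic C26 replicate 3 and subcutaneous C26 replicate 4. Without those 2 libraries, 36 members rose and 5 did not pass in splenic C26, and 38 rose and 3 did not pass in subcutaneous C26. The 6 fibro-adipogenic markers summed to 348 to 1234 CPM in splenic C26 and 1496 to 1876 in sham, and to 392 to 761 CPM in subcutaneous C26 and 1167 to 2147 in control libraries. The 6 satellite cell and myoblast markers summed to 53.7 to 263 CPM in splenic C26 and 53.1 to 92.8 in sham, and to 60.4 to 103 CPM in subcutaneous C26 and 47.4 to 63.6 in control libraries. Of the 6 epithelial markers only Krt19 was measured, at 0 to 0.479 CPM in splenic C26 and 0.321 to 0.446 in sham libraries, and at 0.0317 to 0.207 CPM in subcutaneous C26 and 0.44 to 0.794 in control libraries. The 8 hepatocyte markers summed to 0.893 to 136 CPM in splenic C26 and 0.512 to 3.53 in sham, and to 1.04 to 2.57 CPM in subcutaneous C26 and 30.5 to 234 in control libraries. The 136 CPM was that of splenic C26 replicate 1, and the rest of its group held 2.02, 1.74 and 0.893 CPM, within the sham range. The 3 measured of 7 erythroid markers summed to 11.6 to 46 CPM in splenic C26 and 4.04 to 5.72 in sham, without overlap, and to 8.6 to 131 CPM in subcutaneous C26 and 3.7 to 14.1 in control libraries. The 6 endothelial markers summed to 197 to 367 CPM in splenic C26 and 227 to 281 in sham, and, without overlap, to 155 to 207 CPM in subcutaneous C26 and 280.3 to 316 in control libraries. Sums of 7 macrophage markers overlapped between the groups, at 121 to 254 CPM in splenic C26 and 177 to 229.5 in sham, and at 101 to 310.3 CPM in subcutaneous C26 and 111 to 232 in control libraries. The part of these cells in the member values was not tested, and in bulk RNA fewer cells of a type cannot be told apart from less RNA per cell.

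Further genes of ribosome biogenesis outside the 41 were counted by list, and these lists were chosen with earlier results of these data known. The 158 further measured genes covered the small and large subunit, polymerases I and III, snoRNP assembly, the exosome and snoRNA hosts. In splenic C26, 111 rose (70.3%) and 5 fell (3.16%), where 28.1% of all genes were called higher and 23.9% lower. In subcutaneous C26, 117 rose (74.1%) and 5 fell (3.16%), against 27% and 23.1% of all genes. The median log2 FC was 0.60 in each, against -0.03 and -0.02 over all genes. For the small subunit, 32 of 44 rose and 1 fell in splenic C26, and 36 rose and 1 fell in subcutaneous C26. Utp14a rose by 1.82 ± 0.21 in splenic C26 and 1.70 ± 0.21 in subcutaneous C26, Dnttip2 by 1.72 ± 0.23 and 1.60 ± 0.23, and the helicase Ddx10 by 1.02 ± 0.14 and 1.14 ± 0.14. Utp6 fell by 0.56 in splenic C26 (adjusted p = 0.0116, edgeR; -0.27 in subcutaneous C26, adjusted p = 0.192, and -0.46, adjusted p = 0.0126, without subcutaneous C26 replicate 3), and Rcl1 fell by 0.47 in subcutaneous C26 (adjusted p = 0.0422; -0.38 in splenic C26, adjusted p = 0.0897), a call that 10 of 27 alternatives lost (adjusted p of up to 0.119, without control replicate 2). For the large subunit, 37 of 44 rose and 1 fell in splenic C26, and 39 rose and 5 did not pass in subcutaneous C26. Las1l, a nuclease subunit of spacer removal, rose by 1.24 ± 0.14 and 1.06 ± 0.14, Ftsj3 by 1.51 ± 0.22 and 1.69 ± 0.23, and Eftud1 (now Efl1), the GTPase that releases Eif6 from new large subunits, by 1.30 ± 0.16 and 1.04 ± 0.16. Rsl24d1 fell by 0.33 in splenic C26 (adjusted p = 0.0182, edgeR, and 0.0635 without sham replicate 4), and its log2 FC was -0.09 in subcutaneous C26 (adjusted p = 0.493).

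**Figure D5:**
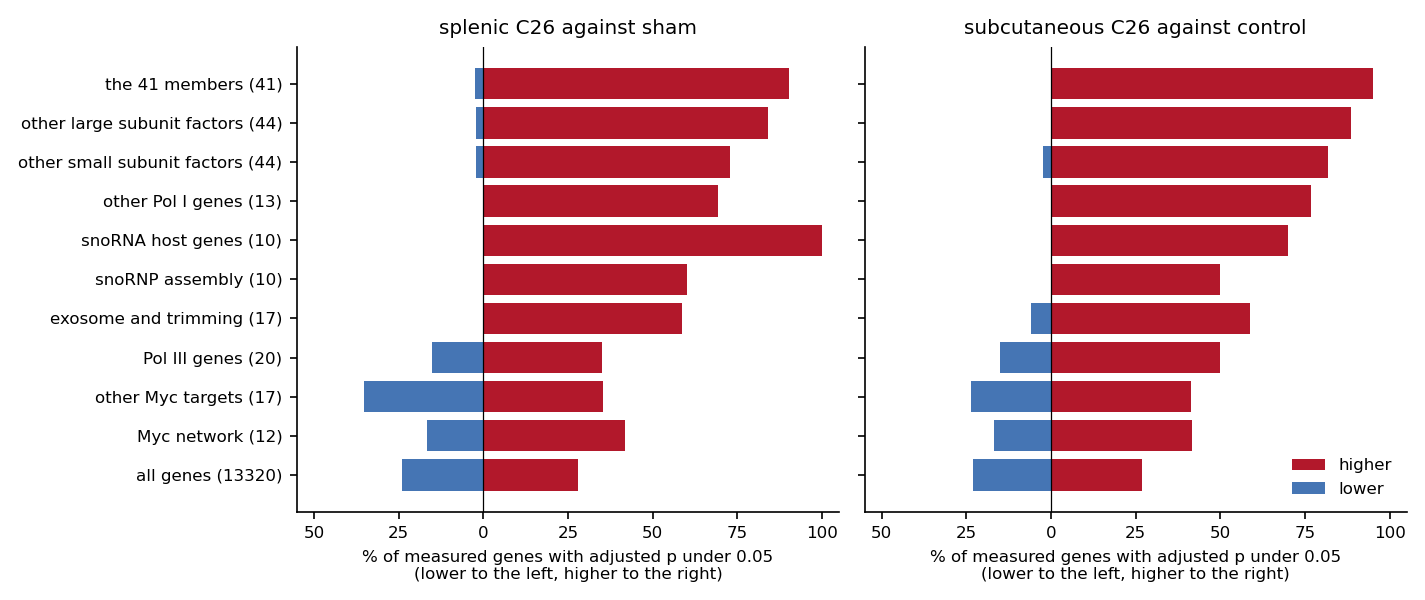
Percent of measured genes called higher (red, right) and lower (blue, left) at an adjusted p of 0.05 in splenic C26 against sham (left panel) and subcutaneous C26 against control (right panel), for the 41 members, related lists (number measured in parentheses) and all 13320 genes. Of the 41 members 90.2% and 95.1% were called higher, against 28.1% and 27% of all genes.

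RNA polymerase III, which makes the 5S and transfer RNAs, had genes called in both directions, as all genes did. Of its 20 genes, 7 rose (35%) and 3 fell (15%) in splenic C26, where 28.1% of all genes were called higher and 23.9% lower. In subcutaneous C26, 10 rose (50%) and 3 fell (15%), against 27% and 23.1% of all genes. Polr3e rose by 1.18 ± 0.14 in splenic C26 and 1.24 ± 0.14 in subcutaneous C26, while the subunits Polr3k (-1.29 ± 0.18 and -1.22 ± 0.18) and Polr3g (-1.55 ± 0.23 in splenic C26, adjusted p = 0.00251 in subcutaneous C26) and the factor Gtf3c6 (-0.89 ± 0.17 and -0.59 ± 0.17) fell in both. Of 10 snoRNP assembly genes, 6 rose (60%) and 4 did not pass in splenic C26, against 28.1% of all genes called higher. In subcutaneous C26, 5 rose (50%) and 5 did not pass, against 27% of all genes called higher. Among the higher ones were Nufip1 (1.48 ± 0.23 and 1.04 ± 0.22) and Ruvbl1 (0.59 ± 0.11 and 0.47 ± 0.11). Of 17 genes of the exosome and precursor trimming, 10 rose (58.8%) and 7 did not pass in splenic C26. In subcutaneous C26, 10 rose (58.8%) and 1 fell (5.88%). The shares of all genes called higher were 28.1% and 27%, and 23.1% were called lower in subcutaneous C26. Exosc5 rose by 1.40 ± 0.22 and 1.51 ± 0.22, the nuclease Exosc10 by 0.94 ± 0.13 and 0.67 ± 0.13 and the nuclease Dis3 by 0.66 ± 0.16 and 1.07 ± 0.16, while Mphosph6 fell by 0.61 in subcutaneous C26 (-0.26 in splenic C26, adjusted p = 0.214). All 10 measured of 12 listed snoRNA host genes rose in splenic C26 and 7 (70%) in subcutaneous C26, against 28.1% and 27% of all genes. Among them were Gas5 (2.91 ± 0.42 and 2.40 ± 0.41) and Snhg6 (2.69 ± 0.37 and 1.87 ± 0.36).

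Of the 41 members, 8 hold snoRNA genes inside their bounds in the GENCODE M21 annotation, 23 in all, with 5 in Nop56, 4 in Nop58, 3 each in Wdr43, Gnl3 and Ncl, 2 each in Tsr1 and Ppan and 1 in Dkc1. Their median log2 FC was 1.19 in splenic C26 and 1.27 in subcutaneous C26, against 0.96 and 0.99 for the 33 members that hold none. These medians are a description, since the 8 genes span from Dkc1 (-0.62) to Gnl3 (2.16) in splenic C26. In 15 of the 41 genes, among them Gnl3 (with Pbrm1), Tsr1 (with Srr) and Nop56 (with Idh3b), exons overlap a gene on the other strand.

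Genes of the Myc network and of Myc turnover were called in both directions, as all genes were. Of 12 measured network genes (13 listed), 5 rose (41.7%) and 2 fell (16.7%) in splenic C26. There 28.1% of all genes were called higher and 23.9% lower. In subcutaneous C26, 5 rose (41.7%) and 2 fell (16.7%), against 27% and 23.1% of all genes. Max, the obligate partner of Myc, rose by 0.59 ± 0.16 in splenic C26 and 0.82 ± 0.16 in subcutaneous C26, and Mnt, a repressor that competes for Max, by 1.79 ± 0.22 and 1.46 ± 0.22. Mycn, the paralogue of Myc, fell in both (-2.88 ± 0.72, adjusted p = 0.00433, and -3.57 ± 0.77, adjusted p = 0.00184, edgeR) at levels of 0 to 0.768 CPM in all libraries, and Mlxipl, a glucose-responsive factor of the extended network, fell by 0.50 and 0.83. Of 8 measured genes of Myc protein turnover and activity (9 listed), 4 rose (50%) and 3 fell (37.5%) in splenic C26. The shares over all genes there were 28.1% and 23.9%. In subcutaneous C26, 4 rose (50%) and 2 fell (25%), against 27% and 23.1% of all genes. Fbxw7, the ubiquitin ligase subunit that marks Myc for degradation, changed by -1.68 ± 0.25 (adjusted p = 0.000183, edgeR) in splenic C26 and -1.03 ± 0.25 (adjusted p = 0.00343) in subcutaneous C26. Usp36, a nucleolar deubiquitinase of Myc, rose by 1.25 ± 0.17 and 1.29 ± 0.17, the kinase Pim1 rose by 2.06 ± 0.35 and 1.86 ± 0.35, and the phosphatase subunit Ppp2r5a fell by 0.82 and 0.81. Skp2 fell by 1.21 in splenic C26 (adjusted p = 0.0319, edgeR), at no more than 1.53 CPM in any library, a call that 6 of 26 alternatives lost (adjusted p of up to 0.101, without sham replicate 3).

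Myc targets outside ribosome biogenesis were called in both directions, as all genes were. Of 17 such genes, 6 rose (35.3%) and 6 fell (35.3%) in splenic C26, where 28.1% of all genes were called higher and 23.9% lower. In subcutaneous C26, 7 rose (41.2%) and 4 fell (23.5%), against 27% and 23.1% of all genes. The median log2 FC was -0.07 and 0.01, against -0.03 and -0.02 over all genes. Srm, spermidine synthase, rose by 1.07 ± 0.24 in splenic C26 and 1.48 ± 0.24 in subcutaneous C26. Tfrc, the transferrin receptor, held 12.1, 6.25, 13.4 and 4.93 CPM in splenic C26 libraries and 133, 140.3, 133 and 147 CPM in sham libraries, a log2 FC of -3.92 ± 0.29 (adjusted p = 3.41e-06, edgeR), and it fell by 3.01 in subcutaneous C26. Prohibitin Phb (-0.89 and -0.83), the nucleoside diphosphate kinase Nme1 (-0.57 and -0.78) and lactate dehydrogenase Ldha (-1.10 and -0.84) fell in both settings, while cyclin Ccnd2 (-1.36) and Prps2 (-0.96), an enzyme of nucleotide synthesis, fell in splenic C26. Of 7 genes listed for the p53 response to nucleolar stress, 3 rose (42.9%) and 1 fell (14.3%) in splenic C26. The shares over all genes there were 28.1% and 23.9%. In subcutaneous C26, 4 rose (57.1%) and 1 fell (14.3%), against 27% and 23.1% of all genes. The median log2 FC of the 7 was 0.17 in splenic C26 and 0.39 in subcutaneous C26, and whether p53 responded was not tested. Cdkn1a, the cell cycle inhibitor p21, rose by 4.53 ± 0.65 in splenic C26 and 3.33 ± 0.61 in subcutaneous C26, Sesn1 rose by 2.91 ± 0.37 and 2.99 ± 0.38, and Ccng1 fell by 1.28 and 0.97.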

How the data were processed

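Quadriceps RNA from mice (16 libraries) was read by Illumina sequencing from both ends of each fragment, 75 bases each, per the labels' protocols. The authors deposited whole-number counts per gene, made with STAR and featureCounts per the labels, with mm10, FastQC and edgeR in the submitters' processing notes; no version, annotation or strand option is named in these sources. They also deposited log2 values, which matched log2 CPM computed from the counts within a residual SD of 0.0018 over 8287 genes and served only as an alternative. Every gene of the count table reached at least 0.502 CPM in 4 libraries, so genes below that level were not analysed here, and 4013 blank lines held no counts.

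Counts were fitted with edgeR 4.0.16 (R 4.3.3), with TMM scaling, filterByExpr (which removed 0 genes) and robust quasi-likelihood dispersion over all 16 libraries with 1 mean per group, and p-values were adjusted by Benjamini-Hochberg over 13320 genes at 0.05. The SE is the log2 fold change divided by the square root of the F statistic. Libraries of a group differed by more than counting noise (chi-square per degree of freedom of at least 12.9), so none was merged as the same library deposited again; this does not show that they came from separate mice. DESeq2 1.42.0 and limma 3.58.1 were alternatives, and the scripts were tested on simulated counts.

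The members and all gene lists were chosen with earlier results of these data known. Given in full were Myc, the 2 members of each role with the smallest larger p of the tumour comparisons, and every member that went against the majority or did not pass in both. From each related list, the 2 genes with the smallest p in each comparison and those called against the majority were named; Max and Nhp2l1 were added after their values were seen. Gene positions are from GENCODE M21 (mm10), which held 41 of 41 members and 12868 of 13320 symbols, and promoters from RefSeq GRCm38.p6. Titles number libraries in no shared way between groups, so replicate numbers only name libraries.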

Additional observations from a re-analysis of the deposited data

Results flagged for a closer look

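Of 164 sets of 4 libraries (41 genes in 4 groups), 15 held a library far from the other 3 by Dixon's test on log2 CPM. That test flags about 1 in 20 sets by chance. The 41 genes share the same 16 libraries, so the sets are not independent and 1 library can be flagged for many genes. Splenic C26 replicate 1 was the low library in 6 of the 15. Its level was 60.1 CPM for Tsr1 (137 to 158 in the other 3 splenic C26 libraries), 70.1 for Wdr43 (120.0 to 133), 26.2 for Nob1 (33.2 to 34.2), 46.6 for Pes1 (91.3 to 99), 146 for Npm1 (292 to 324) and 179 for Mybbp1a (276 to 293).

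Subcutaneous C26 replicate 3 stood apart in a further 6. It was low for Utp15 at 8.37 CPM (15.6 to 17 in the other 3 subcutaneous C26 libraries), Rrp1b at 11.7 (14.6 to 15), Ppan at 7.12 (12.1 to 13), Ddx18 at 31.1 (55.1 to 61.9) and Gnl3 at 51.8 (117 to 138). It was high for Wdr12, at 25.7 CPM, against 15.8 to 17.1 in the other 3. These are the libraries that lay between the tumour-bearing and the tumour-free libraries on the first principal component of all genes.

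The remaining 3 were sham libraries that stood high by a small margin. Sham replicate 4 held 14.4 CPM of Polr1b (11.6 to 12 in the other 3 sham libraries) and 21.9 CPM of Nop2 (16.6 to 17.3), and sham replicate 3 held 27.3 CPM of Ltv1 (25.4 to 25.5).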

How the results depend on the processing

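Under 27 alternatives (other scalings and filters, DESeq2, limma, 8 libraries only, libraries left out), the count of members called higher was 35 to 38 in splenic C26 and 33 to 39 in subcutaneous C26, and 37 to 38 and 34 to 39 with any 1 library left out. The count called lower in splenic C26 was 2 with upper-quartile scaling, 2 without splenic C26 replicate 1 and subcutaneous C26 replicate 3, 0 with 8 libraries, 0 without splenic C26 replicate 3 and subcutaneous C26 replicate 4, and 0 to 1 with any 1 library left out (0 without sham replicate 1, splenic C26 replicate 3 or splenic C26 replicate 4). In subcutaneous C26 it was 1 without splenic C26 replicate 1 and subcutaneous C26 replicate 3, and 0 to 1 with 1 library left out (1 without subcutaneous C26 replicate 3). Upper-quartile scaling moved the median of all genes to -0.24 in splenic C26 and -0.26 in subcutaneous C26, left 35 members higher and 2 lower and 33 higher and 0 lower, and gave Bms1 a log2 fold change of -0.08 in splenic C26 (adjusted p = 0.542); the cause of the other changes was not tested.

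For the 158 other biogenesis genes, the count called lower was 12 in splenic C26 and 11 in subcutaneous C26 with upper-quartile scaling and 9 and 8 without splenic C26 replicate 1 and subcutaneous C26 replicate 3. With 1 library left out it was 4 to 8 and 4 to 7, with 8 in splenic C26 without replicate 1. These alternatives, and the promoter window with 50 bases after the start (17.1% of members with CACGTG), were chosen after seeing the data. Of the related genes named, calls in splenic C26 were lost in 8 of 26 alternatives for Prps2 (adjusted p of up to 0.121), and in subcutaneous C26 in 7 of 27 for Ldha (up to 0.0972, without control replicate 4) and for Ccng1 (up to 0.0979, likewise). No paired analysis was possible because the labels give no replicate numbers shared between groups. Depth limits the related genes Mycn and Skp2 more than the 41 members, which had at least 107 counts in every library.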
